A study of Danio rerio with 12 samples.

Results

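The comparison described here set the eyes of mmachc mutant zebrafish against the eyes of heterozygous fish at 28 days post fertilization (dpf), the juvenile age of the study. It used 6 of the 12 arrays of the series, 3 for each genotype. Each array was hybridised with RNA from a pool of whole eyes. The mutant fish are called homozygous in the sample titles. The control fish carry 1 copy of the same mutation, so no wild-type eye was measured, and the sources used here do not say what kind of lesion it is. The remaining 6 arrays hold eyes of the same 2 genotypes at 7 dpf, in the larval stage. They share the estimate of the spread in the fit and serve below as a reference for the level of a gene in the larval eye. The number of fish in a pool is not given either, so p-values measure the spread between these pools. The fish and the pools have no batch label in the sources used here.

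The mmachc product receives vitamin B12 (cobalamin) inside the cell, strips its upper ligand and passes it on. The vitamin then becomes the cofactor of 2 enzymes, methionine synthase in the cytosol, which turns homocysteine into methionine, and methylmalonyl-CoA mutase in mitochondria, which ends the breakdown of propionate. In people, loss of the gene causes combined methylmalonic aciduria and homocystinuria of the cblC type, in which degeneration of the retina and poor growth are known. The title of the series names survival, growth and the form of the retina as traits that need the gene in zebrafish.

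Values are log2 intensities after robust multi-array averaging (RMA), so a difference of 1 is a 2-fold difference, and all differences below are mutant minus heterozygous at 28 dpf unless another age is named. Of 19260 genes with a probe set of 1 gene symbol, 14002 were bright enough to be tested. The remaining 5258 were not. A gene rose or fell where limma's adjusted p lay under 0.05. By that rule 3051 genes rose (21.8%) and 5462 fell (39.0%), together 60.8% of those tested. Of these, 67 rose (0.479%) and 286 fell (2.04%) by at least 2-fold. The arrays of the 2 genotypes did not overlap for 64.4% of the genes. Lack of overlap was also a condition for naming some of the genes with the largest changes. Where it is stated for a named gene below, it describes the values and is no separate support for the difference. The median gene differed by -0.09, and the middle of the distribution, from the first to the third quartile, ran from -0.37 to 0.16. Counts for a list of genes have to be read against these shares. The lists were chosen with earlier results of these data known, so an excess over the shares is a description and no independent support.

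The balance of rises and falls depended on how the arrays were scaled. The median of the named probe sets lay between 7.22 and 7.24 in heterozygous arrays and between 7.02 and 7.04 in mutant arrays. After quantile normalization of the named probe sets alone the median difference was 0.01, and 4388 genes rose (31.3%) while 4276 fell (30.5%). With every array moved to the same median of its named probe sets (centring) the median was 0.11, and 5842 genes rose while 3284 fell. Rises were thus 35.8% of the calls as deposited, 50.6% after quantile normalization and 64.0% after centring. Under all 3 scalings alike, 3005 genes rose (21.5%) and 3284 fell (23.5%). A level below the 33rd percentile of its array's named probe sets is called dim here. In mutant eyes the levels of lss, hacd1, acaa1, rraga, wars2, aars2, slc25a21, mmadhcb, slc46a1, hspb6 and ogna were dim on all 3 arrays, as were those of fbxo32, cox4i1l, slc25a38a, tcnbb, plvapa, cdkn1a and crygm2d17 in heterozygous eyes. On 1 or 2 of 3 arrays of a genotype this was so for col10a1a, gnmt, mgst3a, gcsha, mtx1a, vars2, fosb, hes2.2, kcnk1a, slc6a5, pdk2b, fgf21, cbx7a, cyp24a1, exorh, guca1g, hbae3, igfbp2a and kcnh6b, so that for all these genes the sizes of the differences are not exact. Where a gene has several probe sets the brightest is given, and some genes differed less on another: eci2 by -0.16, cpt1aa by -0.28, slc6a5 by -0.10, gabrr2a by 0.26, polr2a by 0.35, thap11 by 0.02 and thraa by 0.29. Each list below is therefore given with its count as deposited and its count under all 3 scalings, and where a rescaling turned the sign of a list's median, the turned value is printed. The 1 rise found in each of the lists of citrate cycle, cell cycle, collagen, complex I, proteasome, assembly factor and endoplasmic reticulum chaperone genes lost its call without 1 or more of the arrays.

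The label was checked against markers of the eye. All 30 markers tested, of rods, cones, lens, pigment epithelium, Muller glia and each class of inner retinal neuron, lay above the 33rd percentile of all 6 arrays. None of 6 markers of liver, pituitary and forebrain and none of 2 neutrophil markers was bright enough to be tested. All 5 muscle markers and all 4 skin markers were tested, and 4 of each lay above the 33rd percentile on all 6 arrays. The muscle markers ran from the 27.7th to the 73.9th percentile of an array. Most named probe sets pass the 33rd percentile, so muscle tissue may have been in the pools but is not shown by this. The skin markers cannot tell skin from the epithelium of the cornea. The targeted gene could not be checked, because the probe set that lists mmachc also lists hspa8. Its level was 7.35, 7.38 and 7.19 in heterozygous and 7.57, 7.40 and 7.52 in mutant eyes (difference 0.19, adjusted p = 0.132 over all probe sets). In RNA from whole eyes, fewer cells of a type and less RNA per cell cannot be told apart, which holds for every difference below.

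**Figure D1:**
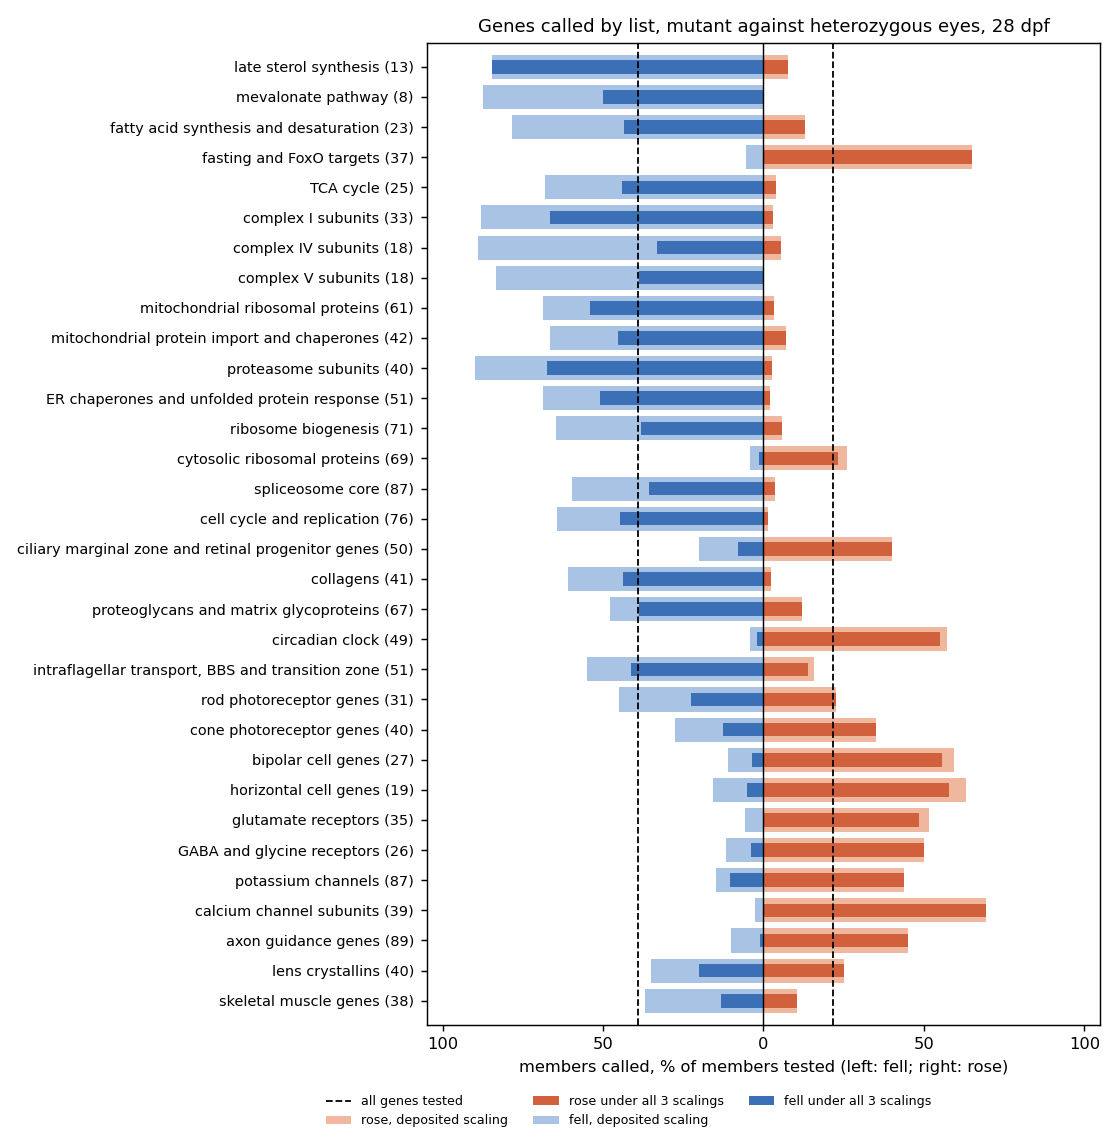
Share of the tested members of 32 gene lists that fell (left) or rose (right) in mutant eyes at 28 dpf, in percent; the number tested stands in brackets. Pale bars give calls on the deposited scaling, dark bars calls under all 3 scalings, and dashed lines the shares over all genes tested on the deposited scaling (39.0% fell, 21.8% rose). The shares to set beside the dark bars, 23.5% fell and 21.5% rose under all 3 scalings, are not drawn. Sterol, respiratory chain and proteasome lists lie far left, and fasting, clock and calcium channel lists far right.

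Sterol synthesis genes were lower in mutant eyes, and their late enzymes, which turn squalene into cholesterol, had the largest median difference of the 95 gene lists examined. Of 13 late enzyme genes 11 fell and 1 rose, with the same counts under all 3 scalings, and the median difference was -1.16. The gene hsd17b7, whose enzyme acts in the demethylation of sterols, measured 8.50, 8.63 and 8.44 in the 3 heterozygous pools and 6.31, 6.34 and 6.44 in the 3 mutant pools. The gap between the genotypes was many times the spread within either, and the difference was -2.16 ± 0.08 (± SE, adjusted p = 4.02e-11). Its other probe set differed by -0.81. The sterol desaturase gene sc5d measured 9.02, 8.98 and 8.88 against 6.79, 6.81 and 7.03, again with no overlap (difference -2.08 ± 0.10, adjusted p = 9.50e-10). The methylsterol monooxygenase gene msmo1 fell by 1.64, to a mean of 8.30. For squalene epoxidase the 2 gene copies went opposite ways: sqlea fell by 2.45 and sqleb rose by 0.58 (adjusted p = 8.95e-05). The level of sqleb was 6.71, 6.84 and 6.65 in heterozygous and 7.13, 7.37 and 7.42 in mutant eyes, so its groups did not overlap either. The lanosterol synthase gene lss fell by 2.22, to a dim mutant mean of 4.97.

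The mevalonate pathway supplies the isoprene units from which squalene is built. Of 8 genes tested there 7 fell and none rose by limma's test (0 rose at an unadjusted p under 0.05; 4 falls under all 3 scalings, median -0.39). Farnesyl diphosphate synthase, encoded by fdps, stands at the branch towards squalene. Its gene measured 8.64, 8.74 and 8.49 in heterozygous and 7.17, 7.38 and 7.11 in mutant pools and fell by 1.40 (adjusted p = 1.92e-08). The HMG-CoA synthase gene hmgcs1 measured 10.54, 10.51 and 10.36 against 9.38, 9.34 and 9.54 and fell by 1.05 (adjusted p = 1.25e-08). The groups of both genes lay well apart. The isomerase gene idi1 fell by 0.65, and hmgcra, for the reductase that statins block, fell by 0.51.

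Genes that sense or move sterols were divided. Of 20 tested 5 rose and 8 fell (5 and 3 under all 3 scalings; the median was -0.12, and 0.08 after centring). STARD5, for a lipid transfer protein, measured 9.79, 9.80 and 9.96 in heterozygous and 8.09, 7.84 and 7.99 in mutant pools. The gene insig1 encodes an anchor that holds the sterol-regulated transcription factors (SREBP) in the endoplasmic reticulum, and it fell by 1.29 on its brightest probe set, while another of its probe sets differed by 0.18. Rises came from the cholesterol exporter gene abca1a, which measured 8.16, 8.29 and 8.36 against 9.33, 8.96 and 9.06 (difference 0.85 ± 0.08, adjusted p = 4.73e-07), and from mylipa, whose product marks the LDL receptor for breakdown (0.78). Both of these genes are known targets of the sterol-sensing liver X receptor in mammals. The protease gene mbtps2, whose product releases SREBP from its membrane, fell by 0.43.

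Fatty acid synthesis and desaturation genes fell in 18 of 23 cases, and 3 rose (10 and 3 under all 3 scalings, median -0.30). The gene fads2 encodes the desaturase of long polyunsaturated fatty acids, in which photoreceptor membranes are rich. Its level was 9.75, 9.90 and 9.51 in heterozygous and 7.55, 7.61 and 7.69 in mutant eyes and fell by 2.098 (adjusted p = 9.11e-10). The elongase gene elovl2, which acts on the same chains, measured 8.45, 8.53 and 8.33 against 7.20, 7.54 and 7.48 (difference -1.03 ± 0.09, adjusted p = 1.17e-07). The groups were far apart in both. The stearoyl-CoA desaturase gene scd fell by 1.21 and the dehydratase gene hacd1 by 1.24. Rises were seen for acacb (0.64), for the form of acetyl-CoA carboxylase that in mammals makes the inhibitor of fatty acid entry into mitochondria, for elovl6 (0.35) and for hacd3 (0.28).

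Among genes that govern the choice between glucose and fat as fuel, 3 pyruvate dehydrogenase kinase genes rose. Of 13 genes of the pyruvate dehydrogenase complex, its kinases and the pyruvate carrier 4 rose and 5 fell (4 and 3 under all 3 scalings; median 0.09), which is near the shares over all genes tested. Pyruvate dehydrogenase kinases switch off the complex that feeds pyruvate into the citrate cycle. The kinase gene pdk2a measured 7.62, 7.63 and 8.03 in heterozygous and 9.70, 9.43 and 9.59 in mutant eyes, a rise of 1.82 (adjusted p = 5.96e-09). Its paralog pdk2b measured 6.11, 6.54 and 6.51 against 7.63, 7.70 and 7.75 and rose by 1.304 (adjusted p = 9.60e-08). The kinase gene pdk4 rose from 7.95, 7.79 and 7.73 to 9.06, 9.02 and 8.95 (difference 1.18 ± 0.08, adjusted p = 1.33e-08). In each of the 3 genes every mutant pool lay above every heterozygous pool. Of the 5 kinase genes tested, the remaining ones, named here after their values were seen, were pdk1, at 0.05 and not called (adjusted p = 0.493), and pdk3a, which fell by 0.16 but not under all 3 scalings. Of the subunit genes of the complex itself pdha1b fell by 0.81, pdha1a by 0.44 and pdhb by 0.40, and dldh rose by 0.24, a call lost without heterozygous replicate 2, mutant replicate 2 or mutant replicate 3.

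On the fat side, cpt1ab encodes the carnitine palmitoyltransferase that admits fatty acids to mitochondria. It measured 6.91, 6.55 and 6.83 in heterozygous and 8.42, 8.74 and 8.42 in mutant eyes (difference 1.76 ± 0.10, adjusted p = 2.66e-09), while its paralog cpt1aa fell by 0.52. The lipase inhibitor gene angptl4 measured 7.17, 7.28 and 7.26 against 8.48, 8.71 and 8.48 and rose by 1.32. The gene pparaa, for the nuclear receptor PPAR alpha that switches on fat oxidation in fasting, rose by 1.103 (adjusted p = 3.96e-09), from 7.64, 7.59 and 7.48 to 8.63, 8.70 and 8.69. In none of the rising genes did the groups overlap. The fasting hormone gene fgf21 rose by 1.01, to a mutant mean of 7.16 from a heterozygous mean of 6.14. The enzymes of the oxidation pathway went both ways. Of 35 fatty acid oxidation genes 11 rose and 9 fell (11 and 6 under all 3 scalings; the median was -0.02, and 0.09 after quantile normalization). The peroxisomal oxidase gene acox3 fell by 0.94, the thiolase gene acaa1 by 0.66 and eci2 by 0.61.

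**Figure D2:**
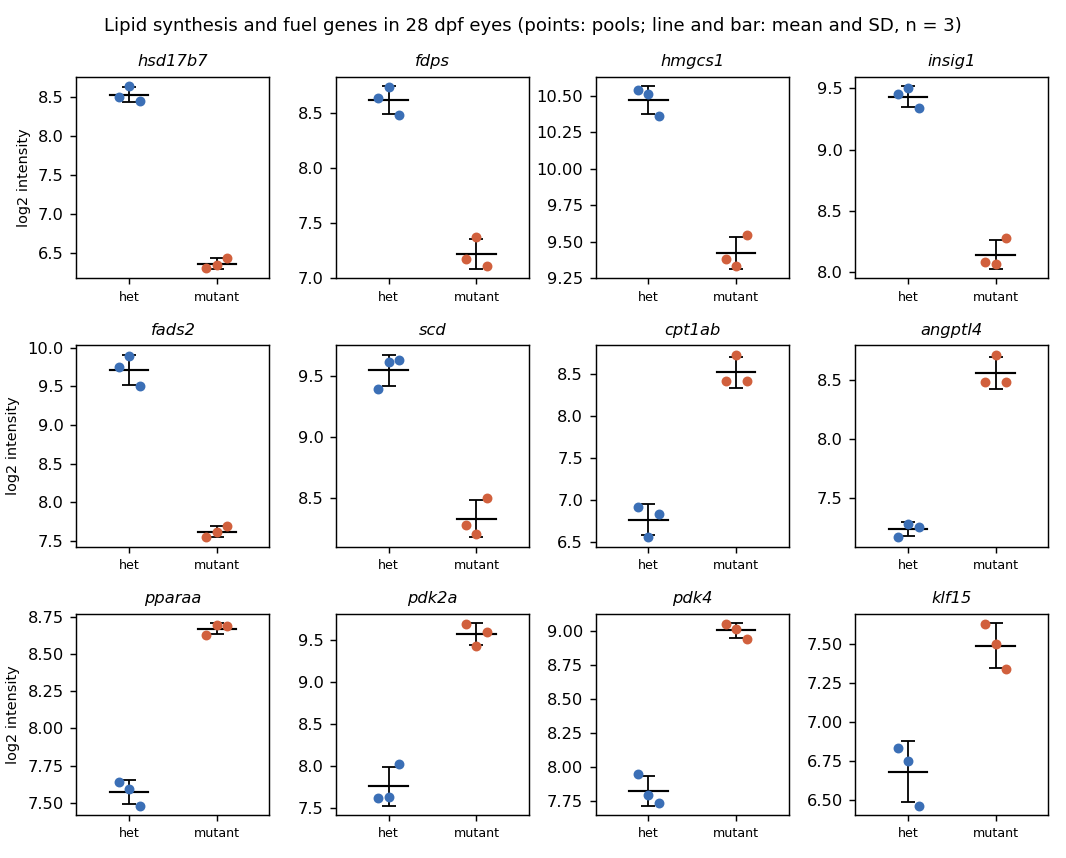
Log2 intensity of 12 genes of lipid synthesis and fuel choice in the 3 heterozygous (blue) and 3 mutant (orange) pools at 28 dpf; points are pools, lines and bars the mean and SD. The sterol and fatty acid synthesis genes hsd17b7, fdps, hmgcs1, insig1, fads2 and scd are lower in all 3 mutant pools, and cpt1ab, angptl4, pparaa, pdk2a, pdk4 and klf15 are higher in all 3.

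Genes of glucose handling went both ways. Of 41 glycolysis and glucose transport genes 5 rose and 11 fell (5 and 5 under all 3 scalings; the median was -0.04, and 0.16 after centring). The lactate carrier gene slc16a3b rose from 8.42, 8.44 and 8.16 to 9.30, 9.47 and 9.23 (difference 0.996 ± 0.08, adjusted p = 5.40e-08). The related carrier gene slc16a1a and the glucose transporter gene slc2a3a also rose, by 0.56 and 0.63. Among the genes for the enzyme that sets the glycolytic signal fructose-2,6-bisphosphate, pfkfb4a rose by 0.77 and pfkfb1, pfkfb2a and pfkfb2b fell by 0.84, 0.73 and 0.52. The aldolase gene aldoab fell by 0.68.

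Genes that respond to fasting through FoxO factors and insulin signalling rose in 24 of 37 cases, and 2 fell (24 and 0 under all 3 scalings). Their median was 0.27, against -0.09 over all genes tested. FoxO factors enter the nucleus when insulin signalling is low. The list's rises included sesn1, whose product holds back the growth kinase mTORC1, which measured 8.69, 8.69 and 8.84 in heterozygous and 9.77, 9.39 and 9.74 in mutant eyes (difference 0.89 ± 0.10, adjusted p = 1.91e-06). The fasting transcription factor gene klf15 measured 6.83, 6.75 and 6.46 against 7.63, 7.50 and 7.34 and rose by 0.81 (adjusted p = 6.51e-06). Neither gene's groups overlapped. The ubiquitin ligase gene fbxo32, a marker of muscle wasting in mammals, rose by 0.61, foxo4 by 0.60 and the insulin receptor substrate genes irs2a and irs1 by 0.56 and 0.55. Both genes that fell, ddit4 (-0.32) and igfbp1a (-0.31), are induced by fasting or stress in other settings, and neither fall held under all 3 scalings. The call of igfbp1a was also lost without heterozygous replicate 2 or mutant replicate 2, which leaves 1 fall.

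The mTORC1 kinase couples nutrients to protein and lipid synthesis from the surface of the lysosome. Of 26 genes of the pathway 15 fell and 5 rose (12 and 4 under all 3 scalings, median -0.28). Core parts of the kinase fell, with rptor at -1.01 and mlst8 at -1.01. Parts of the lysosomal docking site fell as well. The Ragulator gene lamtor5 measured 8.46, 8.52 and 8.52 in heterozygous and 7.65, 7.31 and 7.42 in mutant eyes (difference -1.04 ± 0.09, adjusted p = 1.40e-07), with no overlap. The Rag GTPase gene rraga fell by 0.99. Rises included those of deptor (0.30) and akt1s1 (0.38), for inhibitors that sit on the kinase, and of flcn (0.36) and fnip1 (0.33), for the pair of proteins that acts on the Rag GTPases. Of 8 subunit genes of the energy sensor AMPK 5 fell and none rose by limma's test (0 rose at an unadjusted p under 0.05; 2 falls under all 3 scalings, median -0.27), led by prkag1 (-0.64) and prkaa2 (-0.53).

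Mitochondrial genes were lower in mutant eyes across most of the organelle's machinery. Of 33 complex I subunit genes tested (38 on the array) 29 fell and 1 rose, with 22 falls under all 3 scalings and a median of -0.45. The subunit gene ndufs1, for the largest subunit of the complex, measured 9.41, 9.46 and 9.51 in heterozygous and 8.62, 8.60 and 8.70 in mutant eyes (difference -0.82 ± 0.06, adjusted p = 1.75e-08). All 8 complex III genes fell (7 under all 3 scalings, median -0.50), and the core gene uqcrc2b measured 10.71, 10.79 and 10.67 against 9.92, 10.07 and 9.92. In both genes the 3 mutant pools lay below the 3 heterozygous pools. Complex IV genes fell in 16 of 18 cases (6 under all 3 scalings, median -0.33), with cox7c at -0.74, and cox4i1l rose (0.39). Without heterozygous replicate 2 the rises numbered 2. Of 18 ATP synthase genes 15 fell and none rose by limma's test (1 rose at an unadjusted p under 0.05; 7 falls under all 3 scalings, median -0.29). The subunit genes atp5pd (-0.55) and atp5mf (-0.54) were among them.

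Complex II, which is also an enzyme of the citrate cycle, had 2 falls among 5 genes, sdhdb (-0.50) and sdhb (-0.15), of which 1 held under all 3 scalings (the median was -0.14, and 0.01 after quantile normalization). The latter is small and turned sign after centring (0.05), and 1 of the 2 calls was lost without heterozygous replicate 1, heterozygous replicate 2 or mutant replicate 2. Of 25 citrate cycle genes 17 fell and 1 rose (11 and 1 under all 3 scalings, median -0.26). The fumarase gene fh fell by 0.59 and idh3a, for a regulated dehydrogenase of the cycle, by 0.61. Factors that assemble the respiratory complexes fell in 29 of 40 cases, and 1 rose (19 and 1 under all 3 scalings, median -0.39). The copper chaperone gene cox19 measured 7.60, 7.53 and 7.94 in heterozygous and 6.53, 6.38 and 6.204 in mutant eyes (difference -1.32 ± 0.10, adjusted p = 5.27e-08). The haem synthesis gene cox10 fell by 0.92 and sdhaf2, needed to load the flavin cofactor into complex II, by 1.11.

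The proteins that mitochondria make themselves need their own ribosomes and tRNA synthetases. Of 61 mitochondrial ribosomal protein genes 42 fell and 2 rose (33 and 2 under all 3 scalings, median -0.53). The large-subunit gene mrpl27 measured 9.15, 9.19 and 9.004 against 7.82, 7.93 and 7.78 (difference -1.27 ± 0.08, adjusted p = 6.02e-09), and mrps18a of the small subunit fell by 1.07. The pools of the 2 genotypes did not overlap in either. The rises were those of mrps6 (0.39) and mrpl20 (0.27). Of 12 mitochondrial tRNA synthetase genes 8 fell, all of them under all 3 scalings (median -0.54), led by wars2 (-1.25), vars2 (-1.18) and aars2 (-1.07). Of 69 cytosolic ribosomal protein genes 3 fell and 18 rose (1 and 16 under all 3 scalings; median 0.07), and the rises numbered 29 after quantile normalization and 54 after centring. Without mutant replicate 1 the rises numbered 11.

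Genes for protein import into mitochondria fell in 28 of 42 cases, and 3 rose (19 and 3 under all 3 scalings, median -0.36; 1 rise without mutant replicate 1 or 2). The outer membrane metaxin genes mtx1b (-1.32), mtx1a (-1.23) and mtx3 (-1.18) fell together. The presequence peptidase gene pmpca measured 8.27, 8.51 and 8.47 in heterozygous and 7.22, 7.26 and 7.24 in mutant eyes and fell by 1.18. Solute carriers of the inner membrane fell in 21 of 47 cases, and 8 rose (15 and 7 under all 3 scalings; the median was -0.14, and 0.06 after centring), shares near those over all genes tested, and after centring 17 rose and 15 fell. Among the falls were slc25a26 (-0.95), the importer of S-adenosylmethionine, and slc25a21 (-0.87), a carrier of oxoadipate. The carrier genes slc25a47a (0.47) and slc25a38a (0.42), the latter a glycine carrier needed for haem, rose. Without heterozygous replicate 1 the rises numbered 5.

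**Figure D3:**
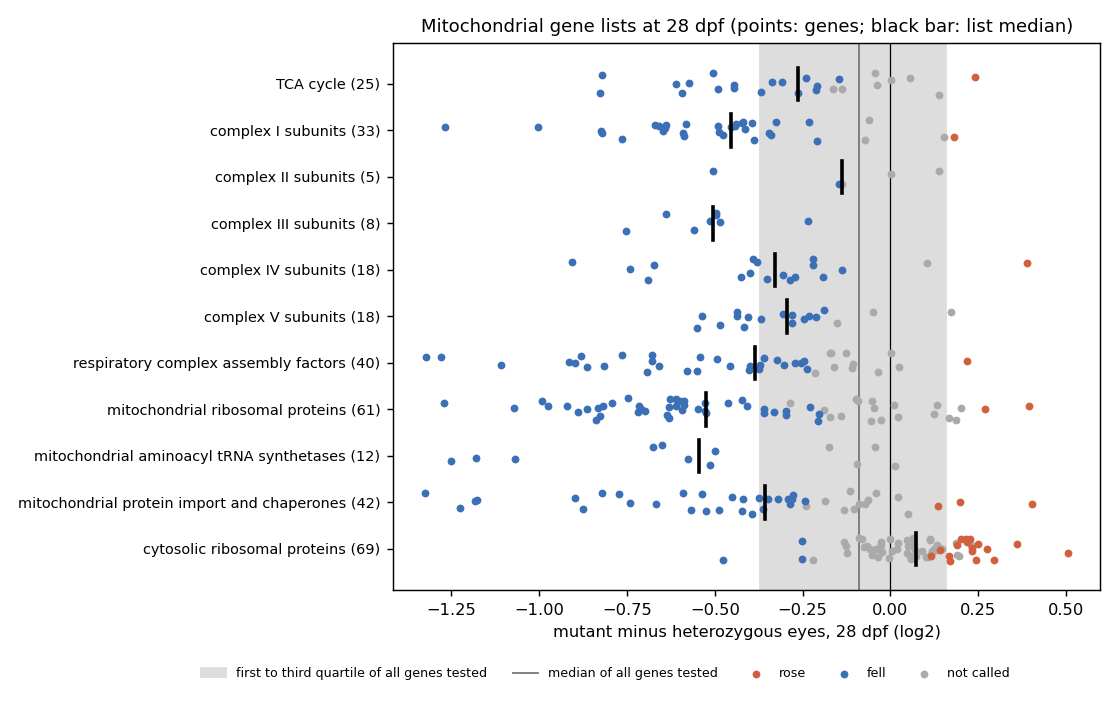
Differences (mutant minus heterozygous, 28 dpf, log2) of the members of 10 mitochondrial gene lists and of the cytosolic ribosomal proteins; points are genes, orange where they rose, blue where they fell and grey where not called, and black bars are list medians. The grey band spans the range from the first to the third quartile of all genes tested, from -0.37 to 0.16; the medians of the mitochondrial lists lie from -0.54 to -0.14 and that of the cytosolic ribosomal proteins at 0.07.

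The genes of cobalamin handling stand next to the mutated gene. Of 15 tested (21 on the array) 2 rose and 9 fell (2 and 7 under all 3 scalings, median -0.38). The transcobalamin gene tcnbb, for a carrier of the vitamin in body fluids, measured 5.84, 5.37 and 4.63 in heterozygous and 6.65, 6.52 and 6.60 in mutant eyes. The heterozygous pools spread over more than 1 unit, and all lay below the mutant pools (difference 1.31 ± 0.21, adjusted p = 6.31e-05). All 3 heterozygous values were dim, so the size of the tcnbb difference is not exact. The gene mmadhcb encodes a partner of the mmachc product that directs the vitamin to its 2 enzymes, and it fell by 0.81, to a mutant mean of 6.04. The adenosyltransferase gene mmab, for the enzyme that makes the mitochondrial form of the cofactor, fell by 0.61 on its brightest probe set, while another differed by 0.03. The reductase gene mtrr, whose product keeps methionine synthase active, fell by 0.45. The transcription factor gene hcfc1a fell by 0.94 and its partner thap11 rose by 0.35, a call that was lost when the mean over its probe sets was taken. Both are known to switch on the human MMACHC gene. The mutase gene mmut itself measured 8.29, 8.39 and 8.38 against 8.36, 8.25 and 8.33 (difference -0.04 ± 0.06, adjusted p = 0.566), with overlapping groups. The gene mmut is named here outside the rule for named genes, after its values were seen.

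The methionine and homocysteine cycle was mixed. Of 24 genes 3 rose and 12 fell (3 and 4 under all 3 scalings; the median was -0.18, and 0.02 after centring). Without mutant replicate 1 the falls numbered 7. The glycine methyltransferase gene gnmt, which disposes of excess S-adenosylmethionine, measured 7.88, 7.93 and 8.02 in heterozygous and 6.002, 6.57 and 6.10 in mutant eyes (difference -1.72 ± 0.14, adjusted p = 7.18e-08). All mutant pools lay below all heterozygous pools. The rises included bhmt (0.60), for the route from homocysteine to methionine that needs betaine in place of cobalamin, and mat1a (0.48), for the synthesis of S-adenosylmethionine. The bhmt pools measured 8.19, 8.07 and 7.90 and 8.81, 8.32 and 8.85, and the mat1a pools 6.92, 7.18 and 7.09 and 7.49, 7.59 and 7.56, the heterozygous values first. Neither gene's groups overlapped.

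Folate carries the methyl group that methionine synthase hands to homocysteine. Of 25 folate genes 13 fell and 4 rose (6 and 4 under all 3 scalings; the median was -0.19, and 0.01 after centring), and the rises numbered 1 without heterozygous replicate 1 and 2 without mutant replicate 3. The thymidylate synthase gene tyms fell by 0.84 and the folate carrier gene slc46a1 by 0.77. The glycine cleavage gene gcsha fell by 0.77 and dmgdh, an enzyme of choline breakdown that yields folate-bound carbon, rose by 0.39. Breakdown of branched chain amino acids and propionate, which ends at the mutase, had 19 falls and 4 rises among 31 genes (12 and 4 under all 3 scalings, median -0.30). The falls included the methylcrotonyl-CoA carboxylase genes mccc1 (-0.76) and mccc2 (-0.64) and the branched chain dehydrogenase gene bckdhb (-0.64). The phosphatase gene ppm1ka, whose product switches that dehydrogenase on, rose by 0.73.

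Genes of protein breakdown and folding were mostly lower in mutant eyes. Of 40 proteasome subunit genes 36 fell and 1 rose (27 and 1 under all 3 scalings, median -0.45). The ATPase gene psmc5 measured 8.63, 8.76 and 8.58 in heterozygous and 7.93, 7.82 and 7.68 in mutant eyes (difference -0.85 ± 0.09, adjusted p = 1.53e-06), and the catalytic subunit gene psmb6 measured 9.96, 9.98 and 10.004 against 9.13, 9.19 and 9.25. The 2 genotypes were separate in both. Chaperones of the endoplasmic reticulum fell in 35 of 51 cases, and 1 rose (26 and 1 under all 3 scalings, median -0.40). The neurotrophic chaperone gene manf measured 9.35, 9.35 and 8.96 against 8.15, 8.30 and 8.15 and fell by 1.02 (adjusted p = 7.53e-07). The disulfide isomerase genes txndc5, pdia6 and pdia5 fell by 1.002, 0.97 and 0.96. The cytosolic chaperonin and its prefoldin partners fell in 11 of 14 cases (6 under all 3 scalings, median -0.31).

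Heat shock genes fell in 22 of 40 cases, and 5 rose (17 and 5 under all 3 scalings, median -0.31). Large falls were those of small heat shock proteins. The gene hspb6 measured 8.14, 7.83 and 7.21 in heterozygous and 6.02, 5.65 and 5.62 in mutant eyes (difference -1.96 ± 0.18, adjusted p = 2.35e-07). The alpha B crystallin genes, whose products are chaperones of lens and muscle, fell as well: cryabb measured 9.92, 9.76 and 10.23 against 8.77, 8.15 and 7.95, and cryaba 9.89, 10.03 and 9.83 against 8.18, 8.44 and 8.58. No mutant pool reached a heterozygous pool in these genes. The rises numbered 1 without heterozygous replicate 2 and 3 without heterozygous replicate 3, mutant replicate 2 or mutant replicate 3. They included the co-chaperone gene bag3 (0.57).

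Amino acid response genes under the factor ATF4 went both ways, with 13 rises and 13 falls among 39 (12 and 4 under all 3 scalings; the median was -0.06, and 0.08 after quantile normalization). The pseudokinase gene trib3 rose by 0.53, and the amino acid carrier genes slc7a3a and slc3a2b by 0.57 and 0.50. The proline synthesis gene aldh18a1 fell by 0.66 and the hormone gene stc2a by 0.89. Antioxidant and glutathione genes fell in 26 of 51 cases, and 4 rose (13 and 3 under all 3 scalings; the median was -0.19, and 0.01 after centring). The methionine sulfoxide reductase gene msrb1b fell by 1.26, and the glutathione transferase genes of the mgst3 pair parted, mgst3a at -1.196 and mgst3b at 0.60. The stress factor gene nfe2l2a rose by 0.34 and nfe2l1b, whose product drives proteasome genes in mammals, fell by 0.79.

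Genes of ribosome production in the nucleolus mostly fell: of 71 genes 46 fell and 4 rose (27 and 4 under all 3 scalings, median -0.30). The processing gene utp15 measured 7.95, 7.83 and 7.86 in heterozygous and 7.12, 6.99 and 6.51 in mutant eyes and fell by 1.01. The nucleophosmin gene npm1b fell by 0.98 and nol6 by 0.80. Translation initiation factors fell in 18 of 48 cases, and 3 rose (10 and 3 under all 3 scalings; the median was -0.12, and 0.07 after centring), with eif4g2a at -0.89 and the cap-binding gene eif4eb at -0.86. Their share that fell, 37.5%, is near the 39.0% over all genes tested, and their share that rose, 6.25%, lies below the 21.8% over all genes. Core spliceosome genes fell in 52 of 87 cases, and 3 rose (31 and 3 under all 3 scalings; median -0.28), led by usp39 (-0.99) and prpf19 (-0.89). None of the 3 rises held by limma's test without heterozygous replicate 3, mutant replicate 2 or mutant replicate 3. Of 48 genes of Mediator and RNA polymerase II 27 fell, and 3 rose (13 and 3 under all 3 scalings; median -0.22), led by med24 (-1.28), and the gene for the large subunit of the polymerase, polr2a, rose by 0.62.

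Collagen genes were mostly lower in mutant eyes, and other connective tissue genes of sclera and cornea fell more often than they rose. Of 41 collagen genes 25 fell and 1 rose (18 and 1 under all 3 scalings, median -0.37). The collagen I gene col1a1a, for the main fibre of sclera and cornea, measured 10.78, 10.85 and 10.74 in heterozygous and 9.46, 9.35 and 9.70 in mutant eyes (difference -1.28 ± 0.10, adjusted p = 3.54e-08). The collagen VI genes col6a2 and col6a1 measured 8.64, 8.52 and 8.28 and 8.93, 8.996 and 8.80 in heterozygous eyes and 6.76, 6.61 and 7.06 and 7.44, 7.37 and 7.51 in mutant eyes. These 3 genes had no overlap between the genotypes. The collagen X gene col10a1a, a marker of hypertrophic cartilage and of bone cells in fish, fell by 1.80 on its brightest probe set, while another differed by 0.31.

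Proteoglycans and glycoproteins that space the collagen fibres fell in 32 of 67 cases, and 8 rose (26 and 8 under all 3 scalings; the median was -0.18, and 0.02 after centring). Lumican, encoded by lum, keeps corneal collagen regular, and its gene measured 7.87, 8.37 and 8.03 against 6.68, 6.67 and 6.68 (difference -1.41 ± 0.12, adjusted p = 1.23e-07). The periostin gene postnb measured 9.24, 9.07 and 9.14 against 7.78, 7.72 and 7.91 and fell by 1.35. The mutant values of both lay more than 1 unit below the heterozygous ones. The osteoglycin gene ogna fell by 1.43, to a mutant mean of 5.60, and the hyaluronan link protein gene hapln1a by 1.304. The largest of the rises in this list were those of nyx of bipolar cells (0.73) and the brain proteoglycan gene bcan (0.67), and those of the cartilage regulators sox9a (0.45) and sox5 (0.44).

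The machinery that folds and ships collagen was lower too, with 25 falls among 36 genes (15 under all 3 scalings, median -0.35). The collagen chaperone gene serpinh1a measured 8.62, 8.85 and 8.55 in heterozygous and 7.88, 7.72 and 7.75 in mutant eyes and fell by 0.89. The vesicle coat gene sec24d, loss of which disturbs the skeleton in zebrafish, fell by 0.86, the prolyl hydroxylase gene p4ha1a by 0.75 and the procollagen processing gene pcolcea by 0.78. Matrix proteases and their inhibitors fell in 18 of 35 cases, and 7 rose (10 and 6 under all 3 scalings; median -0.20), with the gelatinase gene mmp2 at -0.92. Vessel and pericyte genes fell in 18 of 41 cases, and 7 rose (12 and 7 under all 3 scalings; the median was -0.16, and 0.03 after centring), which is near the shares over all genes tested. The pericyte genes rgs5a (-0.96) and abcc9 (-0.76) and the endothelial gene egfl7 (-0.64) fell, and plvapa (0.62), dll4 (0.49) and esamb (0.63) rose.

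Genes of dividing cells were mostly lower in mutant eyes. Of 76 cell cycle and replication genes 49 fell and 1 rose (34 and 1 under all 3 scalings, median -0.38). The cyclin gene ccna2 measured 7.83, 7.93 and 7.81 in heterozygous and 6.62, 6.66 and 7.12 in mutant eyes (difference -1.06 ± 0.12, adjusted p = 1.44e-06). The mitotic kinase gene cdk1 measured 7.65, 7.78 and 7.74 against 6.66, 7.06 and 7.03 and fell by 0.80. The groups of both were separate. Genes of the ciliary marginal zone, the rim of the fish retina that keeps adding neurons, did not follow: of 50 genes 20 rose and 10 fell (20 and 4 under all 3 scalings, median 0.16). Among the rises were the Myc genes mycn (0.66) and mycb (0.64), drivers of growth, and among the falls hes2.2 (-0.66) and the Notch ligand gene dld (-0.47).

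Of 25 genes of p53 and its targets 7 rose and 4 fell (7 and 1 under all 3 scalings, median 0.06). The death gene bbc3 measured 6.63, 6.53 and 6.72 in heterozygous and 7.95, 7.66 and 7.93 in mutant eyes (difference 1.22 ± 0.10, adjusted p = 5.27e-08), with no overlap. The arrest gene cdkn1a rose by 0.63, from a heterozygous mean of 5.65, and ZMAT3 by 0.67. Chromatin genes moved both ways. Among their products, the DNA and histone methyltransferases use the S-adenosylmethionine that the methionine cycle makes. DNA methylation genes fell in 10 of 20 cases, and 3 rose (9 and 3 under all 3 scalings, median -0.26), and the methyltransferase gene dnmt3aa measured 9.38, 9.46 and 9.45 against 8.36, 8.27 and 8.32. Histone methyltransferases had 12 rises and 23 falls among 55 (12 and 15 under all 3 scalings; the median was -0.13, and 0.07 after centring), and 21 rises and 15 falls after centring. Their shares that rose and fell, 21.8% and 41.8%, are near the 21.8% and 39.0% over all genes tested. The rises included kmt2e (0.80) and kmt2a (0.76) and the falls kmt5b (-1.004) and ehmt1a (-0.80). Histone demethylases had 8 rises and 8 falls among 25 (8 and 3 under all 3 scalings; median 0.06). The demethylase gene jmjd1ca rose by 1.08 and the Polycomb gene cbx7a by 1.74, the latter from a heterozygous mean of 6.16.

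Several genes with large differences had, in mutant eyes at 28 dpf, a level nearer to that of larval eyes than heterozygous eyes had. They are named here for this trait, and its share over all genes tested was not counted. Not all genes with large differences had it. For lss the mutant level at 28 dpf lay farther from the larval level than the heterozygous level did. The levels of the genes with this trait are given as values at both ages, because the change with age in heterozygous eyes shares its arrays with the comparison of genotypes. The gene igf2bp1 encodes an RNA-binding protein of fetal and growing tissue. At 28 dpf it measured 7.71, 7.75 and 7.68 in heterozygous and 9.64, 9.78 and 9.57 in mutant pools. At 7 dpf its values were 9.88, 9.90 and 9.80 in heterozygous and 9.86, 9.91 and 9.84 in mutant pools. Only the heterozygous eyes at 28 dpf were low. The rise of 1.95 at 28 dpf (adjusted p = 9.09e-12) was on the brightest of its probe sets, and another differed by -0.08. Its paralog igf2bp3 had means of 9.68 and 9.57 at 7 dpf and of 8.41 and 9.36 at 28 dpf, heterozygous first. The chromatin gene hmga2, likewise high in embryos, had means of 9.59 and 9.53 at 7 dpf and of 7.78 and 8.70 at 28 dpf. Both rose at 28 dpf, by 0.94 and 0.92.

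Embryonic haemoglobin genes were also higher in mutant eyes at 28 dpf. The embryonic haemoglobin gene hbae1.1 measured 6.85, 6.65 and 6.50 in heterozygous and 9.55, 10.13 and 9.90 in mutant eyes at 28 dpf, while its means at 7 dpf were 10.54 and 10.41. The difference at 28 dpf was 3.19 on this probe set and 1.66 on its other. The embryonic genes hbae3 and hbbe2 rose by 1.46 and 1.37. The adult haemoglobin genes hbaa1 and hbba1, planned as blood markers, gave no value, so neither is set beside the embryonic genes. Some other red cell genes fell, among them the anion exchanger gene slc4a1a by 0.63 and the red cell carbonic anhydrase gene cahz by 0.59. The blood marker alas2 fell by 0.45 (adjusted p = 0.0369), with overlapping groups. Of 25 erythrocyte genes in all 6 rose and 9 fell (6 and 4 under all 3 scalings; the median was -0.04, and 0.08 after quantile normalization), and their mean level ran from 7.36 to 7.53 in heterozygous and from 7.46 to 7.61 in mutant pools. The amount of blood in the pools is not known, and its part in these values was not tested.

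**Figure D4:**
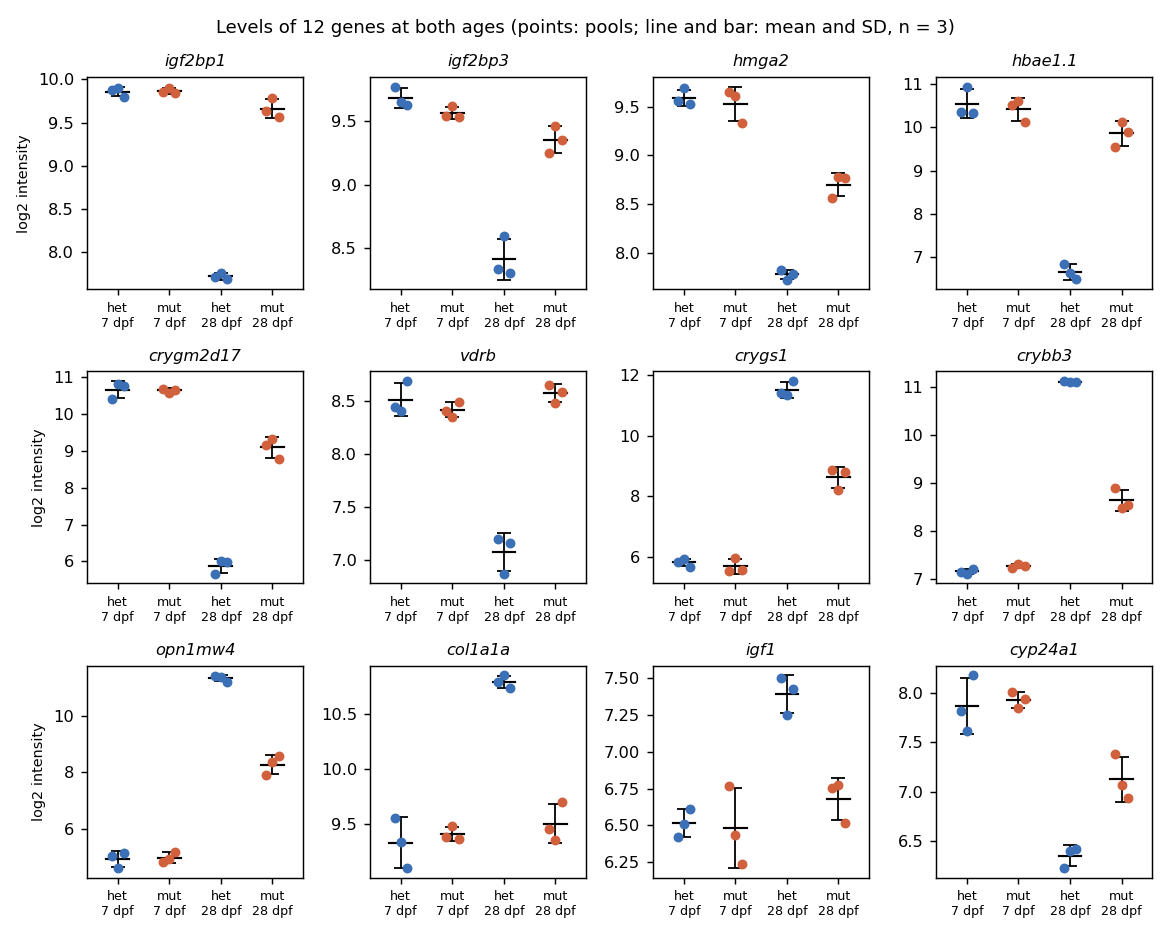
Log2 intensity of 12 genes in the 4 groups of 3 pools, at 7 and 28 dpf (blue heterozygous, orange mutant; points are pools, lines and bars the mean and SD). For igf2bp1, hbae1.1 and crygm2d17 the heterozygous 28 dpf pools are the low group, and for crygs1, crybb3, opn1mw4 and col1a1a they are the high group, with the mutant 28 dpf pools between them and the larval pools or near the larval pools. The other panels show igf2bp3, hmga2, vdrb, igf1 and cyp24a1.

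The lens crystallins are the clear proteins that fill the lens fibres. Of 40 crystallin genes tested (49 on the array) 10 rose and 14 fell (10 and 8 under all 3 scalings; the median was -0.03, and 0.01 after quantile normalization). The largest rises were those of gamma M crystallins. The gene crygm2d17 measured 5.66, 6.01 and 5.98 in heterozygous and 9.17, 9.33 and 8.78 in mutant eyes at 28 dpf, with means of 10.67 and 10.65 at 7 dpf. Falls came from crygs1, which measured 11.41, 11.35 and 11.82 against 8.86, 8.23 and 8.81 (7 dpf means 5.81 and 5.69), and crybb3, which measured 11.13, 11.11 and 11.12 against 8.89, 8.48 and 8.55 (7 dpf means 7.15 and 7.26). No pools of the 2 genotypes overlapped at 28 dpf in these genes. Gamma crystallins are near-identical copies that the same probes may detect, which leaves the value of a single member uncertain. Of the 5 lens markers cryaa differed by -0.06 ± 0.14, mipb by 0.0037 ± 0.05 and bfsp2 by 0.10 ± 0.08, none of them called (adjusted p = 0.723, 0.957 and 0.302), and the others, mipa and lim2.4, were called at -0.17 and 0.34. The intermediate filament gene vim rose by 1.18, from 8.86, 8.74 and 8.93 to 10.03, 9.99 and 10.06, and the lens epithelium factor gene foxe3 by 0.56.

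Hormone genes of growth and maturation were compared next. Of 32 genes of the growth hormone and IGF axis 12 rose and 12 fell (12 and 8 under all 3 scalings; the median was -0.04, and 0.15 after centring). The growth factor gene igf1 measured 7.50, 7.25 and 7.42 in heterozygous and 6.76, 6.77 and 6.52 in mutant eyes (difference -0.71 ± 0.12, adjusted p = 1.11e-04), while the growth hormone receptor gene ghra rose by 0.53. The binding protein genes igfbp2b and igfbp3 fell by 0.90 and 0.72, and igfbp2a rose by 0.63. Of 17 genes of thyroid hormone action 5 rose and 2 fell (5 and 2 under all 3 scalings; median 0.10). The thyroid hormone receptor genes thraa (0.50) and thrab (0.52) rose, as did dio3b (0.47), for the enzyme that inactivates the hormone, and dio1 (-0.56), of the opposite activity, fell. Of 11 vitamin D and calcium hormone genes 5 rose, the same number under all 3 scalings, and none fell by limma's test (0 fell at an unadjusted p under 0.05; median 0.21). The vitamin D receptor gene vdrb measured 7.20, 6.87 and 7.15 against 8.65, 8.48 and 8.58 (difference 1.5002 ± 0.09, adjusted p = 5.43e-09), vdra 9.35, 9.23 and 9.44 against 10.28, 10.39 and 10.40, and their target cyp24a1, for the enzyme that degrades the hormone, 6.22, 6.40 and 6.42 against 7.38, 7.06 and 6.93. All mutant pools were higher than all heterozygous pools in these 3 genes.

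Photoreceptor lists were divided. Of 31 rod genes 7 rose and 14 fell (7 and 7 under all 3 scalings; the median was -0.13, and 0.07 after centring), and the mean level of the list ran from 10.43 to 10.53 in heterozygous and from 10.35 to 10.42 in mutant pools. The shares that rose and fell, 22.6% and 45.2%, are near the 21.8% and 39.0% over all genes tested, but most rod genes are bright. Of the 4667 brightest genes tested 30.9% rose and 32.2% fell, and of the 28 rod genes among them 5 rose and 14 fell. Beside genes of that brightness, rod genes thus rose less often and fell more often. Some genes of the rod cascade fell: the phosphodiesterase gene pde6b measured 10.70, 10.68 and 10.70 in heterozygous and 10.11, 9.80 and 10.003 in mutant eyes (difference -0.72 ± 0.07, adjusted p = 3.98e-07). The channel genes cnga1a and cnga1b fell by 0.68 and 0.60 and guca1b, for a calcium sensor of the cascade, by 0.69. Among the rises were guca1aa (0.81), of the same sensor family, and exorh (0.74), the rhodopsin of the pineal gland and a close relative of the rod opsin gene. Of the cell type markers, the rod transducin gene gnat1 fell by 0.23 from a level of 12.30, 12.41 and 12.47, but not under all 3 scalings, and the rod arrestin gene saga measured 10.82, 10.83 and 10.74 against 10.81, 10.54 and 10.66, which did not pass the test (adjusted p = 0.103).

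Of 40 cone genes 14 rose and 11 fell (14 and 5 under all 3 scalings; the median was -0.01, and 0.19 after centring). The green opsin gene opn1mw4, which comes on late in the growing eye, measured 11.39, 11.38 and 11.21 in heterozygous and 7.91, 8.36 and 8.56 in mutant eyes, against means of 4.94 and 4.99 at 7 dpf (difference at 28 dpf -3.05 ± 0.15, adjusted p = 1.32e-09). The genes of the green opsin cluster are close copies, so part of the signal may come from its neighbours. The red opsin gene opn1lw1 fell by 0.29, but not under all 3 scalings, and the ultraviolet opsin gene opn1sw1 measured 12.53, 12.59 and 12.53 against 12.57, 12.63 and 12.63, a difference of 0.06 ± 0.04 that did not pass the test (adjusted p = 0.196). Rises included the cone channel genes cnga3a (0.68) and cngb3.2 (0.85) and guca1g (1.02). The retinal guanylate cyclase gene gucy2f fell by 0.72. The cone transducin gene gnat2 did not pass the test (-0.004 ± 0.04, adjusted p = 0.934).

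Outer segments are modified cilia, and genes of the transport that builds them fell more often than they rose. Of 51 genes of intraflagellar transport, the BBSome and the transition zone 28 fell and 8 rose (21 and 7 under all 3 scalings, median -0.28). The transport motor gene dync2li1 measured 7.99, 7.82 and 7.59 against 6.76, 6.61 and 6.63 (difference -1.13 ± 0.13, adjusted p = 1.54e-06), and the BBSome gene bbs7 fell by 0.98. The rises ranged from 4 to 5 without heterozygous replicate 1 or 2 or mutant replicate 2 or 3. Disc genes were split, with 11 rises and 12 falls among 36 (11 and 8 under all 3 scalings; median 0.00018). The rim protein gene prph2la fell by 0.84 and reep6 by 1.13, and the ankyrin genes ankrd33aa and ankrd33ab rose by 1.06 and 1.07. In the pigment epithelium, whose visual cycle renews the chromophore, 11 of 26 genes fell and 5 rose (6 and 5 under all 3 scalings; the median was -0.07, and 0.05 after quantile normalization). The retinol-binding gene rbp2a measured 8.25, 8.10 and 8.19 in heterozygous and 6.70, 6.37 and 6.67 in mutant eyes, and the isomerase gene rpe65a 10.90, 10.79 and 10.52 against 10.38, 10.01 and 9.97, both without overlap. Of 27 melanin genes 9 rose and 5 fell (9 and 1 under all 3 scalings; median 0.01), and 3 fell without heterozygous replicate 1 or 2. The melanin genes slc24a5 (0.51) and slc45a2 (0.46) rose.

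Many lists of inner retinal neurons and of neuronal signalling had more rises than over all genes tested (21.8%). The share that rose grew with brightness, from 14.8% of the 4668 dimmest genes to 30.9% of the 4667 brightest. Most of these lists hold many bright genes, but only 14 of 87 potassium channel genes are in the brightest group. Among members of the lists in that brightest group, 14 of 18 calcium channel, 9 of 14 potassium channel, 11 of 15 glutamate receptor, 9 of 18 GABA and glycine receptor, 13 of 21 bipolar, 4 of 9 horizontal, 6 of 15 amacrine, 12 of 25 ganglion cell and 24 of 40 guidance genes rose. Of 39 calcium channel subunit genes 27 rose and 1 fell (27 and 0 under all 3 scalings, median 0.26). The T-type channel gene cacna1ha measured 8.22, 8.20 and 8.24 in heterozygous and 9.07, 8.96 and 8.92 in mutant eyes (difference 0.77 ± 0.06, adjusted p = 9.47e-08). The channel gene of photoreceptor and bipolar synapses, cacna1fb, measured 8.88, 8.78 and 8.92 against 9.45, 9.56 and 9.49 and rose by 0.64. In both, the mutant pools were higher throughout. Potassium channels had 38 rises and 13 falls among 87 genes (38 and 9 under all 3 scalings, median 0.20), with kcnh6b (0.92) and kcna3a (0.82) up and kcnk1a (-0.87) and kcnj20 (-0.71) down.

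Glutamate receptors rose in 18 of 35 cases, and 2 fell (17 and 0 under all 3 scalings, median 0.18). The NMDA receptor gene grin2cb measured 6.90, 7.12 and 7.21 in heterozygous and 7.95, 8.26 and 8.38 in mutant eyes (difference 1.12 ± 0.10, adjusted p = 1.93e-07). The receptor through which ON bipolar cells sense glutamate, grm6b, measured 7.85, 7.89 and 7.91 against 8.50, 8.64 and 8.73 and rose by 0.74. Neither gene's groups overlapped. Other parts of the ON bipolar complex rose as well, gpr179 by 0.78, nyx by 0.73 and the channel gene trpm1a by 0.44, and of 27 bipolar cell genes 16 rose and 3 fell (15 and 1 under all 3 scalings; median 0.18). GABA and glycine receptors rose in 13 of 26 cases, and 3 fell (13 and 1 under all 3 scalings; median 0.17), with glra4b at 0.85 and gabrr2a, of the bipolar cell receptors for GABA, at 0.73. Of 19 horizontal cell genes 12 rose, led by onecutl (0.80), onecut3a (0.73), onecut3b (0.62) and onecut2 (0.49), and 3 fell (11 and 1 under all 3 scalings; median 0.24), with the connexin gene gja9a at -0.70.

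Amacrine genes had 13 rises and 5 falls among 30 (12 and 1 under all 3 scalings; median 0.09), and ganglion cell genes 17 and 10 among 44 (16 and 6 under all 3 scalings; median 0.01). The glycine transporter gene slc6a5 fell by 0.68 on its brightest probe set, and the melanopsin gene opn4xb rose by 0.83. The amacrine markers gad1b, slc6a9 and slc32a1, at 0.004, 0.05 and -0.09, did not pass the test (adjusted p = 0.945, 0.425 and 0.234). Guidance genes for growing axons rose in 40 of 89 cases, and 9 fell (40 and 1 under all 3 scalings, median 0.15), led by the semaphorin genes sema4bb (0.83) and sema6ca (0.64) and the ephrin gene efna3a (0.62). Tubulin genes mostly fell. Of 16 tubulin genes 11 fell and 2 rose (9 and 2 under all 3 scalings, median -0.37), and the growth cone gene stmn2a measured 8.53, 8.62 and 8.54 against 7.77, 8.03 and 7.81 and fell by 0.69. At the synapse 23 of 62 vesicle release genes rose and 14 fell (23 and 5 under all 3 scalings; median 0.08). The complexin gene cplx4b fell by 1.22, and the synaptotagmin genes syt5b and syt9b rose by 0.77 and 0.72. Myelin genes fell in 8 and rose in 4 of 23 cases (6 and 4 under all 3 scalings; the median was -0.16, and 0.04 after centring).

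**Figure D5:**
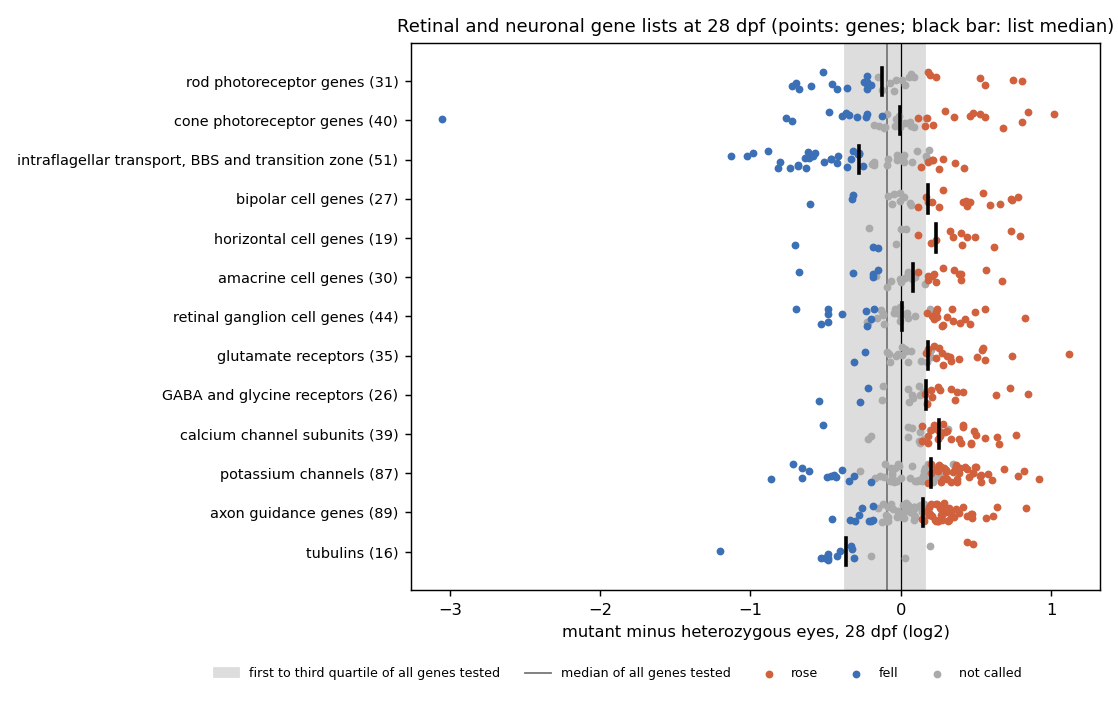
Differences (mutant minus heterozygous, 28 dpf, log2) of the members of 13 retinal and neuronal gene lists; points are genes, orange where they rose, blue where they fell and grey where not called, black bars are list medians and the grey band spans the range from the first to the third quartile of all genes tested. The medians of the channel and receptor lists lie above 0 (0.26 for calcium channels), and those of the transport list and the tubulins below it (-0.28 and -0.37); the point far left is opn1mw4.

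The circadian clock sets daily rhythms in many eye cells. Of 49 clock genes 28 rose and 2 fell (27 and 1 under all 3 scalings, median 0.30). At 7 dpf 9 of them rose and 17 fell (median -0.08). The output factor gene dbpb measured 7.91, 7.58 and 7.23 in heterozygous and 9.39, 9.22 and 9.11 in mutant eyes (difference 1.66 ± 0.12, adjusted p = 2.60e-08). The Rev-erb repressor gene nr1d4b measured 6.54, 6.74 and 6.73 against 7.35, 7.63 and 8.02 and the related nr1d4a 6.76, 6.89 and 7.09 against 7.49, 7.82 and 8.06. The genotypes did not overlap in these genes, but the pools of a genotype differed: the SD of dbpb was 0.34 in heterozygous eyes and that of nr1d4b 0.34 in mutant eyes, against medians over all genes of 0.080 and 0.093. The sources used here do not give the hour of collection. The melatonin synthesis gene aanat1 fell by 0.57.

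Muller glia genes rose more often, and fell less often, than genes over all, but not among the brightest genes, and injury genes gave no common direction. Of 33 Muller glia genes 12 rose and 6 fell (12 and 4 under all 3 scalings, median 0.05). These are 36.4% and 18.2%, against 21.8% and 39.0% over all genes tested. Of the 4667 brightest genes tested 30.9% rose and 32.2% fell, and of the 18 Muller glia genes among them 5 rose and 6 fell, which is near those shares. The injury marker gfap measured 7.29, 7.22 and 7.68 against 7.30, 7.49 and 7.31 (difference -0.03 ± 0.12, adjusted p = 0.838). Another intermediate filament gene, vim, rose, as given with the lens genes. Genes of reactive glia and retinal regeneration rose in 9 and fell in 11 of 37 cases (9 and 9 under all 3 scalings; the median was -0.06, and 0.07 after quantile normalization). Factors that are induced early after injury were low in mutant eyes: klf4 measured 9.19, 9.62 and 9.83 in heterozygous and 6.66, 7.83 and 8.76 in mutant pools, fosl1a 8.11, 8.45 and 8.004 against 6.69, 6.65 and 7.17 and fosb 8.06, 8.02 and 7.66 against 5.69, 6.79 and 7.54. The differences were -1.79 ± 0.33, -1.35 ± 0.14 and -1.24 ± 0.29, and the pools of a genotype lay far apart in these genes. Other early genes rose, egr1 by 0.55 and atf3 by 0.48.

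Genes of other cell types that an eye pool can hold gave these values. Of 38 skeletal muscle genes 14 fell and 4 rose (5 and 4 under all 3 scalings; median -0.23), and their mean level was 7.28, 7.39 and 7.47 in heterozygous and 7.35, 6.80 and 7.37 in mutant pools, so that mutant replicate 2 stood low. Without it, 8 fell and 8 rose, and without heterozygous replicate 2, mutant replicate 1 or mutant replicate 3 the rises numbered 2. Macrophage genes fell in 8 and rose in 4 of 25 cases (6 and 4 under all 3 scalings; the median was -0.01, and 0.16 after quantile normalization), with means from 7.26 to 7.30 in heterozygous and from 7.10 to 7.23 in mutant pools. The antigen presentation gene cd74a fell by 1.35, and the microglial receptor gene csf1ra did not pass the test (0.04 ± 0.07, adjusted p = 0.676). Keratin and skin genes fell in 15 and rose in 5 of 39 cases (12 and 5 under all 3 scalings; the median was -0.13, and 0.07 after centring), with krt15 at -1.34 and cyt1l at 1.38, and the skin markers krt4, krt5, krt91 and epcam, at 0.08, -0.04, 0.13 and 0.08, did not pass the test (adjusted p from 0.155 to 0.65). Lymphocyte, neutrophil, hepatocyte and brain lists had few members bright enough to test: 5 of 22, 4 of 20, 4 of 29 and 11 of 32. Of the lymphocyte genes tested 4 rose and none fell by limma's test (0 fell at an unadjusted p under 0.05; 4 rises under all 3 scalings), namely gata3 (0.64), tox (0.57), tcf7 (0.38) and blnk (0.32). Whether this RNA came from lymphocytes or from other cells of the eye was not tested. Of the brain and pituitary genes 5 rose and none fell (0 fell at an unadjusted p under 0.05; 5 rises under all 3 scalings), with zic1 at 0.50 and zic2a at 0.42, and 3 rose without heterozygous replicate 1. Both the neutrophil and the hepatocyte genes tested had 1 rise and 2 falls (1 and 1 under all 3 scalings), and 1 of the falls in each lost its call without heterozygous replicate 1. The part of muscle, skin, immune and brain cells in the other results, the rises of neuronal genes among them, was not tested.

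Among signalling families of development, FGF and Wnt genes had more rises than falls. Of 38 FGF genes 18 rose and 4 fell (18 and 1 under all 3 scalings; median 0.15), and of 52 Wnt genes 20 rose and 7 fell (20 and 2 under all 3 scalings; median 0.15). The falls among FGF genes numbered 2 without heterozygous replicate 2 or mutant replicate 1. The Wnt receptor gene fzd3a, used in axon guidance, measured 8.43, 8.52 and 8.48 in heterozygous and 9.11, 9.38 and 9.32 in mutant eyes (difference 0.79 ± 0.07, adjusted p = 2.41e-07), and fgf18b rose by 0.70. Both of their groups were separate. TGF beta, BMP and activin genes had 17 rises and 14 falls among 64 (17 and 7 under all 3 scalings; median 0.06), and 11 rises without mutant replicate 2. The BMP antagonist gene chrdl2 fell by 1.08.

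The last comparison set the difference between genotypes at 28 dpf beside that at 7 dpf, which rests on other arrays. At 7 dpf 567 genes rose (4.05%) and 1176 fell (8.40%). The SD of the differences over all genes was 0.413 at 28 dpf and 0.198 at 7 dpf, and over 14002 genes the 2 sets of differences correlated at 0.055 (Pearson), which is a description across genes that are not independent replicates. Of 8513 genes called at 28 dpf 1133 were also called at 7 dpf, 13.31% of the later and 65.0% of the earlier calls. Over all genes tested 60.8% were called at 28 dpf and 1743 of 14002 at 7 dpf. Both shares thus lie near those over all genes, and the overlap is no sign that the early changes lasted. In 668 of the 1133 genes called at both ages the direction was the same (306 rose and 362 fell at both ages), and in 465 it was opposite, 386 falling at 7 dpf and rising at 28 dpf and 79 the reverse. The difference between genotypes changed between the ages by limma's interaction test for 6610 genes (47.2%).

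The kinase gene pdk2a was among those that changed direction, with -0.47 at 7 dpf (adjusted p = 0.0111) and 1.82 at 28 dpf, an interaction of 2.28 ± 0.16 (adjusted p = 8.57e-08). Of the late sterol enzymes 0 rose and 0 fell by limma's test at 7 dpf (0 and 0 at an unadjusted p under 0.05), with a median of -0.04, against -1.16 at 28 dpf. The lss gene, for instance, measured 6.37, 6.35 and 6.29 in heterozygous and 6.67, 6.53 and 6.43 in mutant eyes at 7 dpf. At 7 dpf 2 complex I genes, 2 proteasome genes and 6 genes of the fasting list fell, with medians of -0.07, -0.05 and -0.12. Other lists had more calls at 7 dpf. Of 49 clock genes 9 rose and 17 fell at that age (median -0.08), against 28 rises and 2 falls at 28 dpf. Of 26 visual cycle genes 13 fell and 0 rose by limma's test (0 rose at an unadjusted p under 0.05; median -0.29). Of 36 disc genes 6 rose and 12 fell (median -0.15). Collagen genes had 0 rises and 0 falls by limma's test at that age (3 and 0 at an unadjusted p under 0.05; median 0.03). The difference between the ages was tested gene by gene, not for these lists. For gnmt the fall was seen at both ages (-0.64 at 7 dpf, adjusted p = 0.00598), and it was larger at 28 dpf by the interaction test (-1.08 ± 0.20, adjusted p = 3.77e-04). The crystallin gene crygs1 differed by -0.13 at 7 dpf (adjusted p = 0.689) and the collagen gene col1a1a by 0.08 (adjusted p = 0.679), neither of them called at that age.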

How the data were processed

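The log2 values were deposited per probe set and, per the submitters' processing notes, come from the Expression Console software of Affymetrix with RMA, for which no versions are given. Per the labels' protocols the array was of a human and mouse type, but the probe table belongs to a zebrafish platform. Probe sets were named through that table: of 75212, 20806 listed 1 gene symbol, 855 several and 53551 none. Entrez identifiers of 20323 were found in RefSeq's table for GRCz12tu, used for names only, and no coordinates are printed. The brightest probe set stood for each of 1365 genes with several. No 2 columns were identical, and arrays of a group correlated at 0.989 to 0.994 over genes.

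Genes above the 33rd percentile of an array's named probe sets on at least 3 of 12 arrays entered the tests. The model was limma 3.58.1 under R 4.3.3 with all 12 arrays (1 mean per group, eBayes with a trend, 8 residual degrees of freedom), and p-values were adjusted by Benjamini-Hochberg over 14002 genes. The median standard error of a difference was 0.08, and the number of arrays limits this precision. The fit was tested on simulated data. The other alternatives were the 6 arrays alone, no trend, no filter or a stricter filter, 2 rescalings, the mean over probe sets, the replicate number as a block, and each array left out.

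The members and the 95 gene lists were chosen with earlier results of these data known, and the lists were corrected by gene name after values were seen. Of 2294 entries given by name 2014 matched a gene on the array, and 42 lists were defined by a symbol pattern. Named genes are, from each list, up to 4 called members with the largest rises and up to 4 with the largest falls, besides the 25 largest changes each way without overlap between the genotypes, the 10 smallest p-values each way and the 5 largest interactions each way among those 50. Cell type markers are named besides. No sequence is printed.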

Additional observations from a re-analysis of the deposited data

Results flagged for a closer look

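The difference between the genotypes changed with age for 6610 genes by limma's test of the difference itself, which sets mutant minus heterozygous at 28 dpf against the same at 7 dpf. Among the genes with large changes at 28 dpf, the embryonic haemoglobin gene hbae1.1 differed more at 28 dpf than at 7 dpf by 3.32 on the log2 scale on its brightest probe set (its other differed by 1.66 at 28 dpf), and the gamma M crystallin genes crygm2d17 and crygm2d16 by 3.24 and 2.64. The pyruvate dehydrogenase kinase gene pdk2a had a change of 2.28 between the ages, and the Polycomb gene cbx7a of 2.03. In the other direction, the green opsin gene opn1mw4 had a change of -3.10 and the collagen X gene col10a1a of -2.97. The col10a1a value is that of its brightest probe set, which differed by -1.80 at 28 dpf, while another differed by 0.31 at that age. The change exceeds the fall at 28 dpf because its mutant mean was the higher at 7 dpf. The crystallin genes crygs1 and crybb3 had changes of -2.77 and -2.59, and the lanosterol synthase gene lss of -2.43. In 3 of these genes, hbae1.1, crygm2d17 and crygm2d16, the heterozygous level at 28 dpf was the low one of the 4 groups.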

How the results depend on the processing

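The scaling of the arrays moved the counts most. After centring, 5842 genes rose and 3284 fell, 152 and 121 of them at least 2-fold, and after quantile normalization 176 genes fell at least 2-fold. Centring turned the sign of 5 named genes, to 0.016 for meis2a, 0.052 for sdhb, 0.048 for spred2b, 0.048 for tfap2a and 0.011 for tfap2b. Of 624 named genes 525 kept their call and direction under every alternative in which they were tested, of 15 in all, and 99 lost the call or turned sign under 1 or more. Without 1 array in turn, 2698 to 2880 genes rose and 5025 to 5343 fell, 67 to 70 and 260 to 322 of them at least 2-fold, and 6092 to 6518 changed with age. The numbers of the replicates do not pair the pools in the labels. Pools of the same number at 28 dpf deviated from their group means with correlations of 0.139, 0.088 and 0.096, and every array correlated best with its own number, a hint from the data. With a replicate block on 12 arrays 3057 genes rose and 5490 fell, 67 and 286 of them at least 2-fold, and with the block on the 6 arrays 3039 rose and 5465 fell. The 6 arrays alone, no trend, either filter and the mean over probe sets gave 2647 to 3553 rises and 4404 to 5803 falls. The files hold no signal over background, which leaves differences to dim levels inexact. With 3 pools in a group and no batch label, a batch that moves with genotype cannot be told apart from it.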

Other observations

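Several gene groups of the 28 dpf comparison have not yet been described. Genes of vacuolar ATPase and lysosome fell in 25 of 52 cases, and 7 rose (17 and 6 under all 3 scalings; the median was -0.17, and 0.02 after centring). The mannosidase gene man2b2 fell by 1.01, the pump subunit gene atp6v1d by 0.83 and the sulfatide-degrading arsa by 0.81, while the cathepsin gene ctss1 rose by 0.68. Autophagy genes fell in 12 of 34 cases, and 6 rose (8 and 6 under all 3 scalings; the median was -0.05, and 0.03 after quantile normalization), with the vesicle kinase subunit gene pik3r4 at -1.04, atg3 at -0.85 and atg4da at -0.85. The autophagy shares that fell and rose, 35.3% and 17.6%, are near those over all genes tested. Genes of cullin ligases and ubiquitin conjugation fell in 24 of 54 cases, and 1 rose (13 and 1 under all 3 scalings; the median was -0.16, and 0.04 after centring). The scaffold gene cul5b measured 6.86, 6.77 and 6.80 in heterozygous and 5.78, 5.82 and 6.05 in mutant pools, and ube2f, whose enzyme charges that scaffold with NEDD8, measured 8.32, 8.25 and 8.15 against 7.22, 7.63 and 7.17. The genotypes did not overlap in either gene, and the mutant level of cul5b was dim on all 3 arrays.

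Motor genes, the kinesins and dyneins, fell in 21 of 47 cases, and 7 rose (12 and 7 under all 3 scalings; the median was -0.12, and 0.08 after centring). The mitotic kinesin genes kif20a and kif22 fell by 0.76 and 0.72, and the axonal kinesin genes kif5ab and kif1aa rose by 0.77 and 0.41. Cytosolic tRNA synthetases and their partners fell in 12 of 21 cases, and 1 rose (5 and 1 under all 3 scalings; median -0.22), with lars1b at -0.77 and tars1 at -0.70. Translation elongation factors had 3 rises and 3 falls among 11 (3 and 1 under all 3 scalings; median 0.06). Polycomb genes had 7 rises and 14 falls among 29 (7 and 10 under all 3 scalings; median -0.22), with mtf2 at -0.91, suz12a at -0.69 and jarid2b at 0.49.

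Lens fibre membrane and filament genes, a list apart from the crystallins, rose in 10 of 31 cases, and 5 fell (10 and 2 under all 3 scalings; median 0.10). The fatty acid binding gene fabp4b fell by 0.97, and the FGF feedback inhibitor gene spry1 rose by 0.58. Interferon and complement genes had 5 rises and 3 falls among 12 (5 and 2 under all 3 scalings; the median was -0.04, and 0.10 after quantile normalization), with irf7 at 0.49 and tap1 at -0.55. Genes of the glucocorticoid response had 5 rises among 16, led by hsd11b2 (0.87), for the enzyme that inactivates cortisol, and cry2 (0.72), and 2 falls, both of which lost their call without mutant replicate 1 and 1 of them without heterozygous replicate 2 (5 and 0 under all 3 scalings; median 0.12). Sodium channel genes had 2 rises and 2 falls among 11 (2 and 1 under all 3 scalings; median 0.08), with 1 rise without heterozygous replicate 2 or mutant replicate 1. Notch and Hedgehog genes had 7 rises and 8 falls among 31 (7 and 2 under all 3 scalings; median 0.01), with 4 rises without heterozygous replicate 1 or mutant replicate 2 and 5 falls without heterozygous replicate 3.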
